A study of Mus musculus with 24 samples.

Results

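Transcripts of 9 integrin subunits and of 1 integrin-binding protein were followed by RNA-seq in C2C12 cells, an established mouse myoblast line, as myoblasts in growth medium and after transfer to medium that induces myotubes, at 2 oxygen levels. The 10 genes were chosen by name from the 24043 gene symbols of the deposited table, and all 10 were present. They are the alpha subunits Itga3, Itga4, Itga5, Itga6, Itga7 and Itgav, the beta subunits Itgb1, Itgb3 and Itgb5, and Itgb1bp2 (melusin), which is not a subunit but a muscle protein that binds the cytoplasmic tail of the beta1 subunit. Growth medium held 10% fetal bovine serum and differentiation medium 2% horse serum with insulin, transferrin and selenium. Each medium was combined with 21% oxygen (normoxia) or 2% oxygen (hypoxia), giving 4 groups, each with biological replicates A and B, so every group mean below has n = 2. The labels name no genetic alteration in any group, and they do not state in full how many days the cells spent in differentiation medium. The 8 RNA-seq libraries are part of 24 samples, of which the chromatin immunoprecipitation and input libraries were not analysed here.

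Integrins are receptors made of 1 alpha and 1 beta chain that span the membrane and tie the extracellular matrix to the actin cytoskeleton. The alpha chain largely sets which ligand is bound. The alpha7, alpha6 and alpha3 chains pair with beta1 as laminin receptors, and alpha7 beta1 is the main laminin receptor of skeletal muscle fibres, placed at junctions with tendon and along the membrane. The alpha5 beta1 pair binds fibronectin, alpha4 beta1 binds fibronectin and the cell surface protein VCAM1, and alphav pairs with several beta chains, beta3 and beta5 among them, to bind vitronectin and other proteins that carry the same short adhesion motif.

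Values are FPKM, fragment counts scaled to transcript length and library size, and the library scaling used is not given in the sources used here. Levels of different genes can be set side by side because FPKM is per length. Changes are on the scale of log2(FPKM + 1), given with their standard error (SE), and were tested with limma over 12389 genes with Benjamini-Hochberg adjusted p-values and a threshold of 0.05. The deposited values sum to between 480018 and 534167 per library, and the relative depth of the libraries, read from the steps between low values, ran from 0.633 to 1. Replicate B of hypoxic differentiation cultures stood apart from replicate A: 613 genes differed more than 2-fold between them, against 56 to 71 in the other groups, and all 12 genes of a proliferation list were higher in B, with a summed level of 324 FPKM against 53.2, and the part of this difference in the integrin values was not tested. That list summed to 348 and 370 FPKM in normoxic growth cultures, 57.1 and 58.3 in normoxic differentiation cultures, and 198 and 175 in hypoxic growth cultures. Myotube markers summed to 7630 and 7650 FPKM in normoxic differentiation cultures and to at most 32.9 FPKM elsewhere. Of the 2 differentiation groups, only the normoxic one thus held myotube transcripts at a high level, and the hypoxic one (17.4 and 9.72 FPKM) is called by its medium here. Myoblast markers (Myod1, Myf5, Des, Vcam1, Cdh15, Chrna1) summed to 86.8 to 135 FPKM in the hypoxic libraries and 522 to 975 FPKM in the normoxic ones. Endothelial, epithelial and adipocyte markers summed to at most 3.53 FPKM in any library. Among the leukocyte markers, Cd3e was at 0 throughout, Ptprc reached at most 0.0137 FPKM and Csf1r at most 0.167 FPKM, while Cd68, a lysosomal membrane protein, was 25.8 and 42.8 FPKM in hypoxic differentiation cultures and at most 3.57 FPKM in the other groups. In whole cultures such as these, fewer cells of a type and less RNA per cell cannot be told apart.

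**Figure D1:**
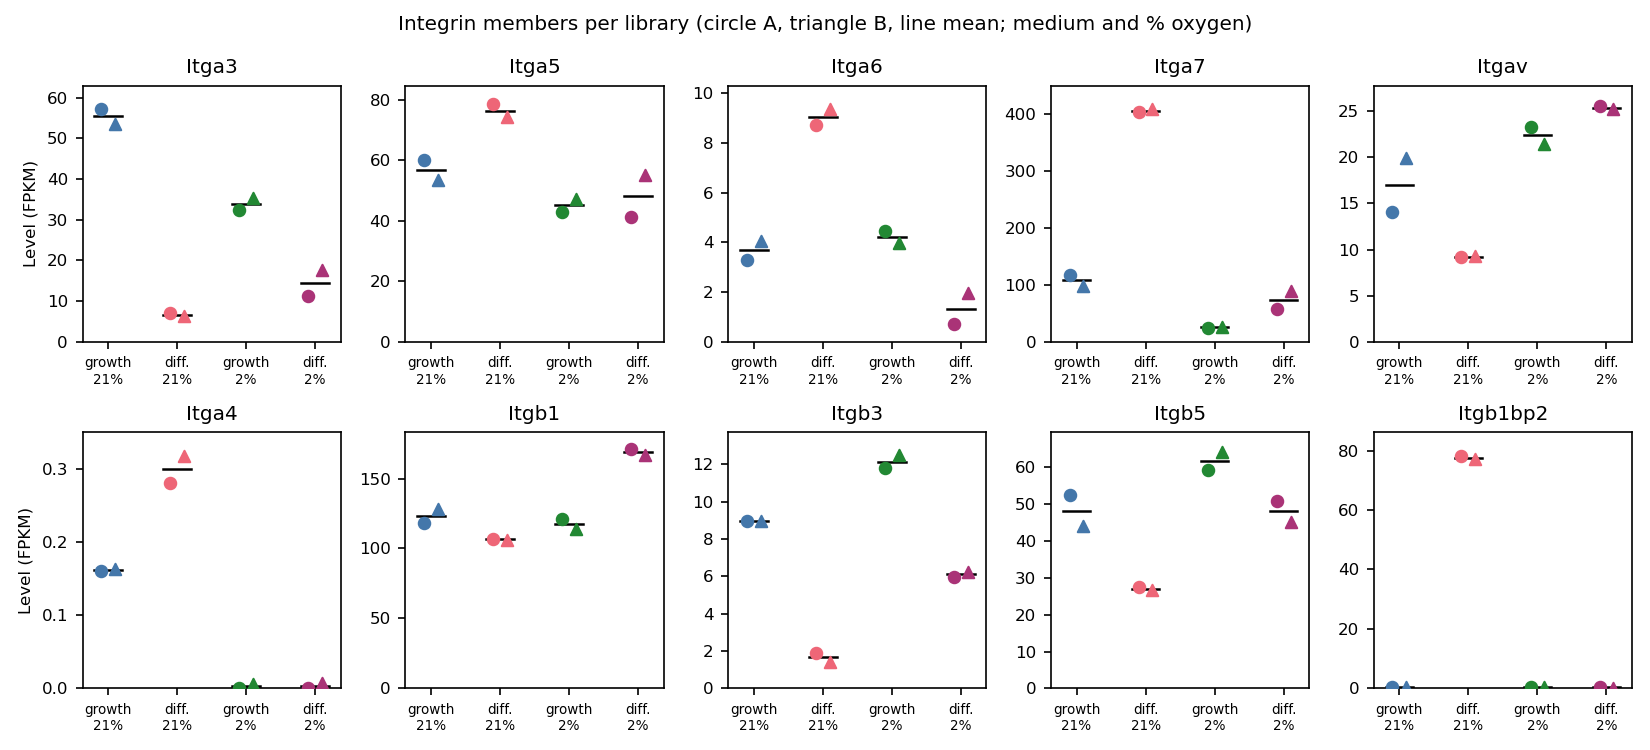
Level in FPKM (vertical axis, starting at 0 and set per gene) of the 10 genes in the 4 groups (horizontal axis, medium and oxygen), with replicate A as a circle, replicate B as a triangle and the mean as a line. Itga7 and Itgb1bp2 (405 and 77.6 FPKM), and also Itga4, Itga5 and Itga6, have their highest mean in normoxic differentiation cultures. Itga3, Itgav, Itgb1, Itgb3 and Itgb5 have their lowest mean there.

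In normoxic growth cultures the most abundant of the 10 transcripts was Itgb1 (123 ± 6.88 FPKM, SD), followed by Itga7 (108 ± 13.1), Itga5 (56.7 ± 4.50), Itga3 (55.4 ± 2.59), Itgb5 (48.2 ± 5.90), Itgav (17.0 ± 4.09), Itgb3 (8.98 ± 0.00799), Itga6 (3.68 ± 0.556), Itgb1bp2 (0.297 ± 0.0162) and Itga4 (0.162 ± 0.00213). The libraries of Itga5 and Itga3 overlapped, and all other neighbours in that order were apart. In normoxic differentiation cultures Itga7 led at 405 ± 3.87 FPKM, ahead of Itgb1 at 107 ± 0.602, followed by Itgb1bp2 at 77.6 ± 0.658, overlapping with Itga5 at 76.4 ± 3.18. Itgav (9.24 ± 0.0935) and Itga6 (9.05 ± 0.441) also overlapped there. In the hypoxic groups Itgb1 led again, at 118 ± 5.14 FPKM in growth medium and 169 ± 2.80 in differentiation medium. Itga7 stood behind Itgb1, Itgb5, Itga5 and Itga3 in hypoxic growth cultures, and behind Itgb1 alone in hypoxic differentiation cultures, where Itga5 and Itgb5 overlapped.

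The laminin receptor chain Itga7 rose with differentiation medium at both oxygen levels and was lower in hypoxia in both media. Its levels were 117 and 98.7 FPKM (replicates A and B) in normoxic growth cultures and 403 and 408 in normoxic differentiation cultures, a 3.75-fold rise. In hypoxia they were 24.8 and 26.2 FPKM in growth medium and 57.8 and 88.5 in differentiation medium, a 2.87-fold rise. No 2 groups overlapped, and the higher hypoxic differentiation value, 88.5, still lay under the lower normoxic growth value, 98.7. On the log2 scale differentiation medium gave 1.90 ± 0.19 (SE, adjusted p 0.000166) in normoxia and 1.45 ± 0.19 (adjusted p 0.00197) in hypoxia. Hypoxia gave -2.04 ± 0.19 in growth medium (adjusted p 0.000423), a 4.24-fold lower level, and -2.49 ± 0.19 in differentiation medium (adjusted p 4.92e-05), a 5.54-fold lower level. Within hypoxic differentiation cultures Itga7 was 1.53 times as high in replicate B as in A. The rise with differentiation medium in hypoxia was 1.15 when replicate B was left out and 1.76 when A was.

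Itga6, another laminin receptor chain, rose with differentiation medium in normoxia and fell in hypoxia. It was 3.28 and 4.07 FPKM in normoxic growth cultures and 8.74 and 9.37 in normoxic differentiation cultures, a 2.46-fold rise (1.11 ± 0.25, adjusted p 0.0071, and 0.0503 without replicate B of the latter group). It was 4.47 and 3.96 FPKM in hypoxic growth cultures and 0.711 and 1.97 in hypoxic differentiation cultures, a 3.15-fold fall (-1.21 ± 0.25, adjusted p 0.00992). The fall in hypoxia lost the threshold in a fit of its own 4 libraries (adjusted p 0.066) and without replicate A or B of hypoxic growth cultures (0.0649 and 0.0502). It was -1.61 without replicate B of hypoxic differentiation cultures and -0.81 without replicate A. In growth medium the hypoxic and normoxic values overlapped (0.16 ± 0.25, adjusted p 0.642), and in differentiation medium Itga6 was 6.76-fold lower in hypoxia (-2.16 ± 0.25, adjusted p 0.000324).

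Itga3, a laminin receptor chain best known from epithelia, fell with differentiation medium at both oxygen levels. It was 57.3 and 53.6 FPKM in normoxic growth cultures and 7.05 and 6.29 in normoxic differentiation cultures, an 8.31-fold fall (-2.88 ± 0.19, adjusted p 2.75e-05), the largest fall among the 9 genes tested in that comparison. It was 32.4 and 35.4 FPKM in hypoxic growth cultures and 11.2 and 17.7 in hypoxic differentiation cultures, a 2.35-fold fall (-1.21 ± 0.19, adjusted p 0.00378). The 4 groups did not overlap. Hypoxia went with a lower level in growth medium (-0.69 ± 0.19, adjusted p 0.0271, over 0.05 when any single library outside hypoxic differentiation cultures was left out) and a higher level in differentiation medium (0.98 ± 0.19, adjusted p 0.00383). That last difference was 0.67 without replicate B of hypoxic differentiation cultures and 1.29 without replicate A.

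Itga5, the fibronectin receptor chain, was highest in normoxic differentiation cultures, and its group means spanned 0.75 on the log2(FPKM + 1) scale. It was 59.9 and 53.5 FPKM in normoxic growth cultures, 78.6 and 74.1 in normoxic differentiation cultures, 42.9 and 47.3 in hypoxic growth cultures, and 41.1 and 55.2 in hypoxic differentiation cultures. Its 1.35-fold rise with differentiation medium in normoxia (0.42 ± 0.14, adjusted p 0.0364) lost the threshold without the filter on low values (adjusted p 0.0561) and when any single library outside hypoxic differentiation cultures was left out. The 2 media overlapped in hypoxia (0.08 ± 0.14, adjusted p 0.704, and -0.01 after upper-quartile scaling). In growth medium Itga5 was lower in hypoxia without overlap, yet the difference of -0.32 ± 0.14 was not called (adjusted p 0.118), and it was called without replicate A or B of hypoxic differentiation cultures (0.0207 and 0.0206). In differentiation medium Itga5 was 1.59-fold lower in hypoxia (-0.67 ± 0.14, adjusted p 0.00588).

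Itgav, the chain of the vitronectin receptors, fell with differentiation medium in normoxia and was highest in the hypoxic groups. It was 14.1 and 19.9 FPKM in normoxic growth cultures and 9.18 and 9.31 in normoxic differentiation cultures, a 1.84-fold fall (-0.79 ± 0.15, adjusted p 0.00321). It was 23.3 and 21.5 FPKM in hypoxic growth cultures and 25.6 and 25.2 in hypoxic differentiation cultures (0.18 ± 0.15, adjusted p 0.393), where the 2 groups did not overlap although the change did not pass the threshold. In differentiation medium its level was 2.75-fold higher in hypoxia (1.37 ± 0.15, adjusted p 0.000254). In growth medium the difference was 0.40 ± 0.15 and was not called (adjusted p 0.0742). It was called with median-of-ratios factors (0.53, adjusted p 0.038), with upper-quartile factors (0.56, adjusted p 0.0328) and without replicate B of normoxic growth cultures (0.63, adjusted p 0.00727).

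Itgb3 and Itgb5, a pair of the beta chains that join alphav, fell with differentiation medium at each oxygen level. Itgb3 was 8.98 and 8.99 FPKM in normoxic growth cultures and 1.89 and 1.42 in normoxic differentiation cultures, a 5.42-fold fall (-1.92 ± 0.11, adjusted p 1.77e-05). It was 11.8 and 12.5 FPKM in hypoxic growth cultures and 5.96 and 6.24 in hypoxic differentiation cultures, a 1.99-fold fall (-0.89 ± 0.11, adjusted p 0.00183). Its 4 groups were apart from each other, with the 2 growth groups above the 2 differentiation groups. In hypoxia Itgb3 was 3.68-fold higher in differentiation medium (1.42 ± 0.11, adjusted p 5.96e-05) and 1.35-fold higher in growth medium (0.39 ± 0.11, adjusted p 0.0317), the latter call being lost at a pseudocount of 0.1 (adjusted p 0.0589) and without any 1 of the 4 growth libraries (0.0925 to 0.16).

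Itgb5 was 52.4 and 44.0 FPKM in normoxic growth cultures and 27.4 and 26.7 in normoxic differentiation cultures, a 1.78-fold fall (-0.80 ± 0.11, adjusted p 0.000642). It was 59.2 and 64.3 FPKM in hypoxic growth cultures and 50.9 and 45.2 in hypoxic differentiation cultures, a 1.29-fold fall (-0.36 ± 0.11, adjusted p 0.0377). The normoxic differentiation libraries were the low ones, and the other 6 lay between 44.0 and 64.3 FPKM. Hypoxia went with a 1.78-fold higher level in differentiation medium (0.80 ± 0.11, adjusted p 0.000659) and a 1.28-fold higher level in growth medium (0.36 ± 0.11, adjusted p 0.0373). Both changes of 0.36 in size lost the threshold without the filter on low values (adjusted p 0.0525 and 0.0515) and with only the libraries compared (0.0709 and 0.0578). The fall in hypoxia was also lost without replicate B of hypoxic differentiation cultures (-0.27, adjusted p 0.11). Both were lost without either library of normoxic differentiation cultures or of hypoxic growth cultures, and the rise in growth medium also without replicate B of normoxic growth cultures (0.23, adjusted p 0.144).

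Upstream sequences were available from RefSeq (GRCm38.p6) for 6 of the 10 genes, in 7 windows because Itga3 has 2 starts. They are shown for Itgav and Itgb5, which make up 1 receptor and were both lower in normoxic differentiation cultures than in any other group, and for the upstream start of Itga3, the gene with the largest fall. Each run is the 250 bases before the annotated start, 5′ to 3′ on the gene's strand, with matches to CANNTG, the E-box bound by MyoD and other basic helix-loop-helix factors, in capitals. The authors' values were mapped to another build, mm9, so the windows were set by gene symbol and not by the authors' coordinates.
Itgav, chr2:83724147-83724396, plus strand: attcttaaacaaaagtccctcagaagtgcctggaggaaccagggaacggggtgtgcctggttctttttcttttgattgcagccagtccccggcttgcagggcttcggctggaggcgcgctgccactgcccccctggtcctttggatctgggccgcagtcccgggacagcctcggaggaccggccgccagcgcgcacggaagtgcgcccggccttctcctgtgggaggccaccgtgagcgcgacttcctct
Itgb5, chr16:33829415-33829664, plus strand: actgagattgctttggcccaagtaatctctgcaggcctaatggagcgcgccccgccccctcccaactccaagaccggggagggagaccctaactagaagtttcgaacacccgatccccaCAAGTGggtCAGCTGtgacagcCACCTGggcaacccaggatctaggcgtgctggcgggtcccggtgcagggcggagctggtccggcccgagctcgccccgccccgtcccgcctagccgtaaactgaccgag
Itga3, chr11:95076715-95076964, minus strand: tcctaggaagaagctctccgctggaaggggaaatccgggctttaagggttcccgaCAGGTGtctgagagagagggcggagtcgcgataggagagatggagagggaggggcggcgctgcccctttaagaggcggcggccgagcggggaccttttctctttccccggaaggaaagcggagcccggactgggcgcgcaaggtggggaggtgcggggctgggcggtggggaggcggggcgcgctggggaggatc
The Itgb5 window held 3 E-box matches, with first bases 131, 122 and 109 bases before the start, the Itga3 window 1 at 195 bases, and the Itgav window none. Of the windows not shown, those of Itga4, Itga5 and the other Itga3 start held 1 match each, and that of Itgb1 none. Both strands were searched, and CANNTG reads the same on each. Of all 32851 windows of this length, 66.2% held at least 1 match. The core of the hypoxia response element, ACGTG or GCGTG on either strand, was present in 38.6% of all windows. Among the 7 windows of these genes it was found once, in Itgb5, at 86 bases before the start.

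Itga4, the VCAM1 receptor chain, was under 1 FPKM in every library, below the filter on low values. It was 0.161 and 0.164 FPKM in normoxic growth cultures and 0.282 and 0.318 in normoxic differentiation cultures. In hypoxia it was 0 and 0.00532 FPKM in growth medium and 0 and 0.00706 in differentiation medium. After correction for relative depth the 6 values above 0 were whole multiples of a shared step to within 6.1e-05 of a fragment, which gives 25, 33, 43 and 61 fragments in the normoxic libraries in the same order and 0, 1, 0 and 1 in the hypoxic ones. All 4 hypoxic libraries lay below all normoxic ones. In a fit without the filter the hypoxic difference was -0.21 ± 0.02 in growth medium (adjusted p 0.00148) and -0.37 ± 0.02 in differentiation medium (adjusted p 5.5e-05), on a log2(FPKM + 1) scale that understates changes at so low a level. Vcam1, the cell surface ligand of this receptor, was 62.4 and 68.4 FPKM in normoxic growth cultures and 3.92 and 5.04 in hypoxic growth cultures (-3.60 ± 0.15, adjusted p 2.77e-05). With differentiation medium in normoxia, where Itga4 was higher, Vcam1 fell to 25.5 and 25.3 FPKM (-1.33 ± 0.15, adjusted p 0.000299).

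Itgb1, the shared beta chain, was steadier than its alpha partners in normoxia and rose with differentiation medium in hypoxia. It was 118 and 128 FPKM in normoxic growth cultures and 107 and 106 in normoxic differentiation cultures, a difference of -0.21 ± 0.07 (adjusted p 0.0437) close to the median of all genes (-0.20), which changed sign after median-of-ratios scaling (0.07, adjusted p 0.547). It lost the threshold when any library except replicate A of normoxic growth cultures and the hypoxic differentiation pair was left out (adjusted p 0.0724 to 0.147). It was 121 and 114 FPKM in hypoxic growth cultures, overlapping with normoxic growth cultures (-0.06 ± 0.07, adjusted p 0.522, and 0.07 after median-of-ratios scaling), and 171 and 167 FPKM in hypoxic differentiation cultures. That 1.44-fold rise (0.52 ± 0.07, adjusted p 0.00245) held at 0.54 and 0.50 when replicate B or replicate A of hypoxic differentiation cultures was left out. In differentiation medium Itgb1 was 1.59-fold higher in hypoxia (0.66 ± 0.07, adjusted p 0.000268).

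Itgb1bp2 was near its lower limit of measurement in 3 groups and abundant in the fourth. It was 0.285 and 0.308 FPKM in normoxic growth cultures, 0.311 and 0.566 in hypoxic growth cultures, and 0.594 and 0.188 in hypoxic differentiation cultures, which correspond to 5, 7, 7, 12, 15 and 3 fragments. In normoxic differentiation cultures it was 78.1 and 77.1 FPKM. The rise in normoxia was 261-fold, with a 95% counting interval of 150 to 506 from the exact Poisson interval of the 12 fragments in growth medium, and 5.92 ± 0.16 on the log2(FPKM + 1) scale (adjusted p 6.73e-07). In differentiation medium the level was 198-fold lower in hypoxia, with an interval of 126 to 335 from 18 fragments (-5.84 ± 0.16, adjusted p 6.48e-07). These intervals cover counting error of the low group alone. With differentiation medium in hypoxia the change was -0.06 ± 0.16 (adjusted p 0.81). A single library set its sign: leaving out replicate B of hypoxic differentiation cultures gave 0.15, leaving out its replicate A -0.27, and leaving out replicate B of hypoxic growth cultures 0.07.

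**Figure D2:**
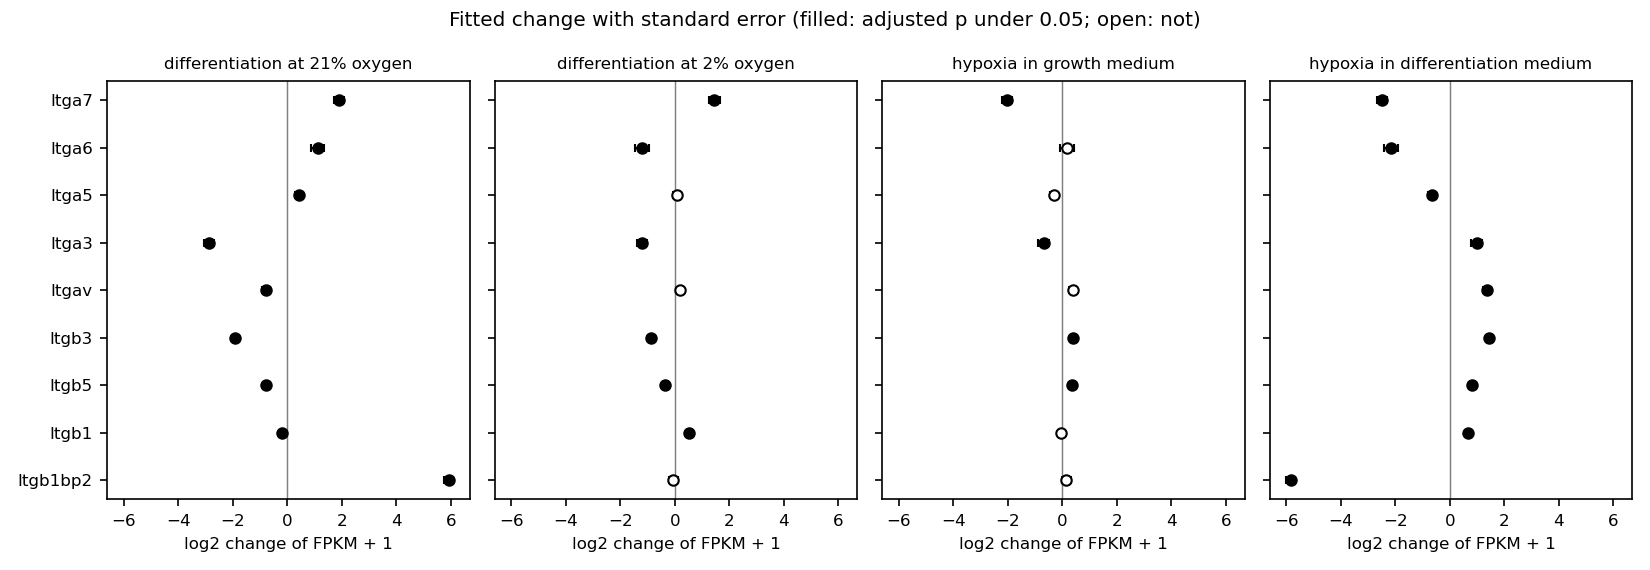
Fitted log2 change of FPKM + 1 (horizontal axis) with its standard error for the 9 genes tested (vertical axis) in 4 comparisons, with filled points for an adjusted p under 0.05. Itgb1bp2 moves farthest, by 5.92 with differentiation medium at 21% oxygen and by -5.84 with hypoxia in differentiation medium, and Itga7 is below 0 in both hypoxia panels.

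Counted over the 9 genes tested, differentiation medium at 21% oxygen raised 4 (Itga5, Itga6, Itga7, Itgb1bp2) and lowered 5 (Itga3, Itgav, Itgb1, Itgb3, Itgb5), in a comparison that called 66.5% of all genes tested (25.5% higher, 41.0% lower). At 2% oxygen 2 rose (Itga7, Itgb1) and 4 fell (Itga3, Itga6, Itgb3, Itgb5), where 40.9% of all genes were called (23.3% higher, 17.6% lower). Hypoxia in growth medium raised 2 (Itgb3, Itgb5) and lowered 2 (Itga3, Itga7), against 41.4% of all genes called (13.5% higher, 28.0% lower). That count of 4 was smaller without any 1 library of hypoxic growth, normoxic growth or normoxic differentiation cultures. The share of all genes called in those fits is not given. Hypoxia in differentiation medium raised 5 (Itga3, Itgav, Itgb1, Itgb3, Itgb5) and lowered 4 (Itga5, Itga6, Itga7, Itgb1bp2), against 65.2% of all genes called (37.5% higher, 27.7% lower). The directions of all 9 were the same without replicate A and without replicate B of hypoxic differentiation cultures. The median change of the 9 genes was -0.21, -0.06, 0.14 and 0.66 in these comparisons, beside -0.20, 0.07, -0.14 and 0.15 for all genes tested. After median-of-ratios scaling the medians of all genes were 0.02, 0.02, -0.03 and -0.01. The share of higher genes among all called ones moved with it, from 38.4%, 56.9%, 32.6% and 57.5% to 53.2%, 52.1%, 45.2% and 47.2%. The comparisons share libraries, so the values above are set side by side and are not independent.

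Shares of the summed alpha chain FPKM put these changes together. The 6 alpha genes summed to 240.9 ± 15.6 FPKM in normoxic growth cultures, 506.9 ± 0.715 in normoxic differentiation cultures, 131.1 ± 4.73 in hypoxic growth cultures and 162.5 ± 36.9 in hypoxic differentiation cultures. Itga7 made up 46.5% and 42.9% of the sum in normoxic growth cultures, 79.5% and 80.4% in normoxic differentiation cultures, 19.4% and 19.5% in hypoxic growth cultures, and 42.4% and 46.9% in hypoxic differentiation cultures. The 2 normoxic growth and the 2 hypoxic differentiation libraries thus overlapped in Itga7 share, although their Itga7 levels did not. Itgav made up 5.60% and 8.65% of the sum in normoxic growth cultures and 1.81% and 1.83% in normoxic differentiation cultures. Its share was 18.2% and 16.0% in hypoxic growth cultures and 18.8% and 13.4% in hypoxic differentiation cultures, above every normoxic library. The Itga5 share was also above every normoxic library in hypoxia, although its mean level was lower there in both media. It was 33.6% and 35.2% in hypoxic growth cultures and 30.1% and 29.3% in hypoxic differentiation cultures. In normoxia it was 23.8% and 23.3% in growth medium and 15.5% and 14.6% in differentiation medium. Itga3 made up 22.7% to 26.3% in the 4 growth libraries, 1.39% and 1.24% in normoxic differentiation cultures, and 8.21% and 9.38% in hypoxic differentiation cultures. With 2 libraries a group the smallest two-sided exact p is 0.33, so the shares are given as values with no test.

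**Figure D3:**
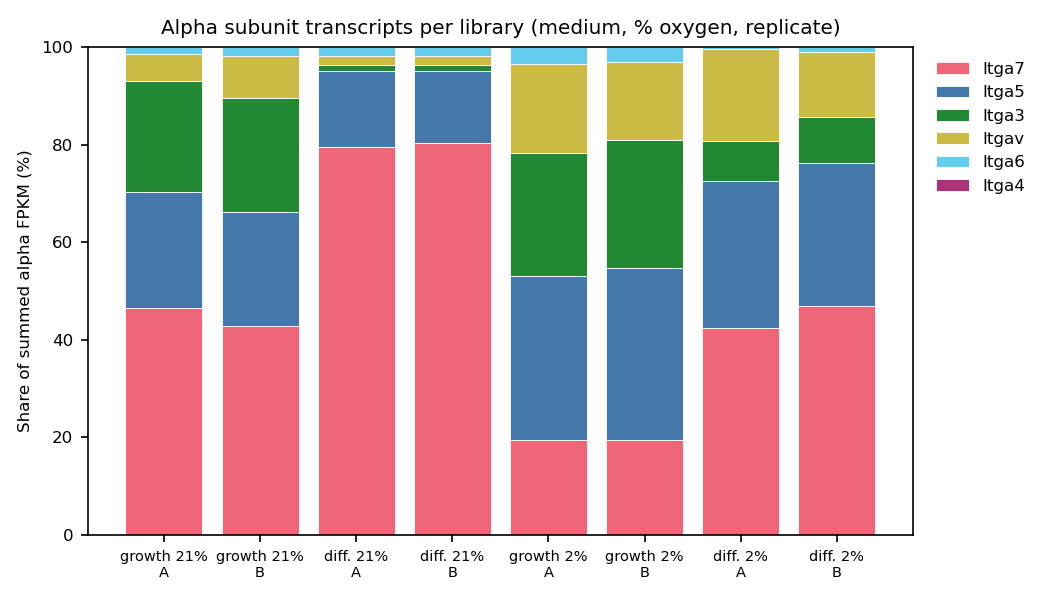
Share in percent (vertical axis) of each of the 6 alpha chain genes in their summed FPKM, stacked, for each of the 8 libraries (horizontal axis, medium, oxygen and replicate). The Itga7 segment takes 79.5% and 80.4% in normoxic differentiation cultures and 19.4% and 19.5% in hypoxic growth cultures, and Itga4 is too small to see.

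Within single libraries the ratio of Itga7 to Itgb1 was 0.992 and 0.771 in normoxic growth cultures, 3.76 and 3.85 in normoxic differentiation cultures, 0.204 and 0.230 in hypoxic growth cultures, and 0.338 and 0.529 in hypoxic differentiation cultures. Itga7 transcripts thus outnumbered those of the shared beta chain, per length, in normoxic differentiation cultures and were fewer in the other 6 libraries. Among the beta chains Itgb1 made up 65.8% and 70.7% of the summed FPKM in normoxic growth cultures, 78.5% and 79.0% in normoxic differentiation cultures, 63.1% and 59.7% in hypoxic growth cultures, and 75.1% and 76.5% in hypoxic differentiation cultures. At both oxygen levels its share was higher in differentiation medium in every library, and that of Itgb3 was lower, at 1.39% and 1.06% against 5.0% and 4.97% in normoxia and 2.61% and 2.85% against 6.12% and 6.55% in hypoxia.

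The interaction subtracts the change with differentiation medium at 21% oxygen from that at 2%. It passed the threshold for 7 of the 9 genes (5 above and 2 below 0), in a test that called 54.1% of all genes (35.4% above and 18.7% below). Itga6 and Itgb1 changed in opposite directions at the 2 oxygen levels (interactions of -2.32 ± 0.35, adjusted p 0.00186, and 0.73 ± 0.10, adjusted p 0.00145), although the normoxic fall of Itgb1 depended on the scaling. Itgb1bp2 had the largest interaction (-5.98 ± 0.23, adjusted p 6.21e-06). The falls of Itga3 and Itgb3 were smaller in hypoxia, with interactions of 1.67 ± 0.27 (adjusted p 0.00244) and 1.03 ± 0.16 (adjusted p 0.00212), and Itgav had 0.97 ± 0.21 (adjusted p 0.00844). Itgb5 had 0.45 ± 0.15 (adjusted p 0.0444), which was 0.12 with median-of-ratios factors (adjusted p 0.6) and was also lost without replicate A of hypoxic differentiation cultures (0.36, adjusted p 0.0797) and without replicate A of normoxic growth cultures or any 1 library of normoxic differentiation or hypoxic growth cultures (0.0746 to 0.143). For Itga7 the interaction was -0.45 ± 0.27 and was not called (adjusted p 0.2). It was called with median-of-ratios factors (-0.78, adjusted p 0.0242) and with upper-quartile factors (-0.67, adjusted p 0.0363). It was -0.75 without replicate B of hypoxic differentiation cultures and -0.15 without replicate A. Itga5 had -0.35 ± 0.20 (adjusted p 0.192), or -0.67 with median-of-ratios factors (adjusted p 0.0137). It was -0.56 without replicate B of hypoxic differentiation cultures and -0.14 without replicate A. Over all genes the median interaction was 0.27, or -0.01 with median-of-ratios factors, and the share above 0 among called genes went from 65.5% to 47.3%.

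**Figure D4:**
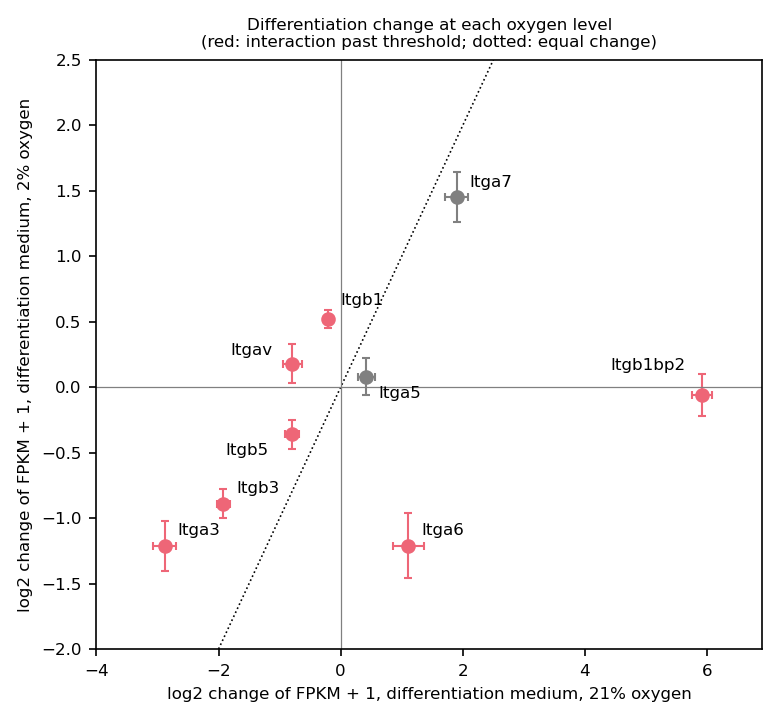
Fitted log2 change of FPKM + 1 with differentiation medium at 21% oxygen (horizontal axis) against that at 2% oxygen (vertical axis, drawn at a larger scale) for the 9 genes tested, with standard errors, and in red the 7 genes whose interaction passed the threshold. Itga7 (1.90 and 1.45) and Itga5 (0.42 and 0.08), in grey, lie above 0 on both axes, and Itgb1bp2 lies at 5.92 and -0.06.

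The other 17 integrin subunits were scarce. Only 7 of them reached a mean of 1 FPKM in any group, and none reached 6 FPKM in any library. Of those 7, differentiation medium in normoxia raised 2 (Itgb2 and Itgb6) and lowered 5, beside 66.5% of all genes called. In hypoxia it raised 1 and lowered 3, beside 40.9% of all genes called. Their median change was -0.1, or -0.12 without replicate A of hypoxic differentiation cultures and -0.08 without its replicate B. Hypoxia raised 1 and lowered 2 in growth medium, and raised 5 and lowered 2 in differentiation medium, beside 41.4% and 65.2% of all genes called. In differentiation medium their median change was 0.36, or 0.40 without replicate A of hypoxic differentiation cultures and 0.24 without replicate B. Itga11, a collagen receptor chain, was 2.53 and 2.78 FPKM in normoxic growth cultures and 5.51 and 5.70 in hypoxic growth cultures (0.85 ± 0.10, adjusted p 0.00107). It fell to 2.63 and 2.37 FPKM in hypoxic differentiation cultures (-0.92 ± 0.10, adjusted p 0.00118). The leukocyte chains Itgal, Itgam and Itgax were at or under 0.358 FPKM in every library, and their beta partner Itgb2 was 4.36 and 4.23 FPKM in normoxic differentiation cultures and at most 1.13 FPKM elsewhere.

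Among 31 adaptor and signalling genes that link integrins to actin, 28 were tested. Differentiation medium in normoxia raised 6 and lowered 17 of them (median -0.78, beside -0.20 for all genes), and hypoxia in differentiation medium raised 15 and lowered 4 (median 0.50, beside 0.15). These comparisons called 66.5% and 65.2% of all genes. Without replicate A of hypoxic differentiation cultures the median of the latter comparison was 0.66, and without replicate B it was 0.35. Flnc, the muscle filamin, an actin cross-linker that binds beta chain tails, was 53.0 and 51.8 FPKM in normoxic growth cultures, 237 and 239 in normoxic differentiation cultures, and 20.6 and 24.3 in hypoxic differentiation cultures. Its rise in normoxia was 2.16 ± 0.10 (adjusted p 5.05e-06) and its difference with hypoxia in differentiation medium -3.35 ± 0.10 (adjusted p 7.27e-07).

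The focal adhesion kinase relative Ptk2b fell from 9.92 and 9.90 FPKM to 0.856 and 1.06 with differentiation medium in normoxia (-2.48 ± 0.24, adjusted p 0.000154). Nedd9, a docking protein of the same pathway, was 9.17 and 8.48 FPKM in normoxic and 71.6 and 44.3 in hypoxic differentiation cultures (2.55 ± 0.20, adjusted p 5.65e-05). Vasp, which promotes actin filament growth at adhesions, rose in normoxia (0.79 ± 0.11, adjusted p 0.000663). It was lower in hypoxia in growth medium (-0.89 ± 0.11, adjusted p 0.00105) and in differentiation medium (-1.72 ± 0.11, adjusted p 1.85e-05). In growth medium hypoxia raised 6 and lowered 11 adaptor genes (median -0.33, beside -0.14 for all genes, of which 13.5% were called higher and 28.0% lower). The largest rise was that of Lims2, a partner of integrin-linked kinase, from 1.13 and 0.678 to 9.69 and 10.2 FPKM (2.54 ± 0.29, adjusted p 0.000849), and the kindlin Fermt2, which binds beta chain tails, rose by 0.97 ± 0.09 (adjusted p 0.000404). Actn4, an actin cross-linker, fell by 0.83 on the log2 scale (SE 0.15, adjusted p 0.00609). Differentiation medium in hypoxia raised 5 and lowered 7 adaptor genes, beside 40.9% of all genes called. The list median was -0.01, or 0.18 without replicate A of hypoxic differentiation cultures and -0.12 without replicate B. Lims2 fell by 1.17 (SE 0.29, adjusted p 0.0185) and Tgfb1i1, a paxillin relative, by 1.11 (SE 0.25, adjusted p 0.0144), while Nedd9 rose by 0.72 (SE 0.20, adjusted p 0.0289). Replicates A and B of hypoxic differentiation cultures lay apart for all of them. They were 2.56 and 5.65 FPKM for Lims2, 8.94 and 16.2 for Tgfb1i1, and 71.6 and 44.3 for Nedd9.

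Of 22 genes for integrin ligands, 18 were tested. Differentiation medium in normoxia raised 6 and lowered 9 (median -0.56, beside -0.20 for all genes, of which 66.5% were called). In hypoxia it raised 1 and lowered 9 (median -0.38, beside 0.07 for all genes, of which 40.9% were called). With the replicate letters as a block it raised 0 and lowered 9, in a fit whose share of all genes called is not given. The median was -0.44 without replicate A of hypoxic differentiation cultures and -0.61 without replicate B. Lama2, the laminin chain of the muscle basement membrane and a ligand of alpha7 beta1, was 3.96 and 4.78 FPKM in normoxic growth cultures and 14.7 and 15.6 in normoxic differentiation cultures (1.59 ± 0.12, adjusted p 4.21e-05). In hypoxia it was 3.08 and 2.89 FPKM in growth medium and 1.27 and 1.07 in differentiation medium, and in differentiation medium its level was lower in hypoxia by 2.90 on the log2 scale (-2.90 ± 0.12, adjusted p 2.9e-06). Lama2 and Itga7 were thus both highest in normoxic differentiation cultures, whereas with differentiation medium in hypoxia Itga7 rose and the Lama2 values were lower. Cyr61, a matricellular ligand, rose by 1.10 in normoxia (SE 0.33, adjusted p 0.0229), and Nid1, a linker that binds laminin, fell by 1.69 (SE 0.08, adjusted p 7.86e-06). Fbn1 (fibrillin) fell in hypoxia by 1.03 (SE 0.12, adjusted p 0.00118). Spp1 (osteopontin), a ligand of alphav receptors, fell 10.1-fold in normoxia (-3.33 ± 0.07, adjusted p 3.03e-07) and 4.95-fold in hypoxia (-2.30 ± 0.07, adjusted p 2.86e-05). Hypoxia raised 6 and lowered 5 ligand genes in growth medium (41.4% of all genes called), and raised 6 and lowered 10 in differentiation medium (65.2% of all genes called). Nid1 was 76.5 and 88.1 FPKM in normoxic and 177 and 182 in hypoxic growth cultures (1.12 ± 0.08, adjusted p 0.000203). Its relative Nid2 went from 84.0 and 78.8 to 25.2 and 28.9 FPKM (-1.56 ± 0.09, adjusted p 9.2e-05). Lamb3, a laminin chain of epithelial basement membranes, rose by 1.57 ± 0.24 (adjusted p 0.00265). In differentiation medium Nid1 was 25.0 and 24.5 FPKM in normoxia and 101 and 98.6 in hypoxia (1.97 ± 0.08, adjusted p 3.57e-06), and Vcam1 was lower in hypoxia (-2.66 ± 0.15, adjusted p 1.3e-05). Mfge8, which binds alphav receptors, was 29.3 and 25.8 FPKM in normoxic and 94.3 and 137 in hypoxic differentiation cultures (2.01 ± 0.19, adjusted p 0.000118).

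All 8 membrane partners of integrins were tested. Slc3a2, the amino acid transporter chain that binds the beta1 tail, rose from 36.3 and 30.8 to 392 and 390 FPKM with differentiation medium in normoxia (3.51 ± 0.11, adjusted p 1.1e-06). The tetraspanin Cd9 fell from 382 and 375 to 93.8 and 89.8 FPKM (-2.03 ± 0.09, adjusted p 4.7e-06), and Cd151, the tetraspanin known to bind laminin-binding integrins, fell by 0.87 (SE 0.13, adjusted p 0.000913). The other 5 did not pass the threshold in that comparison, which called 66.5% of all genes. In hypoxia differentiation medium raised 1 (Cd81) and lowered 2 (Cd82 and Cd9), beside 40.9% of all genes called. The list median was 0.19, or 0.13 without replicate A of hypoxic differentiation cultures and 0.31 without replicate B. Hypoxia raised 4 and lowered 3 in growth medium, where 13.5% of all genes were called higher and 28.0% lower, Cd63 among the latter 3 (-1.16 ± 0.11, adjusted p 0.000368). It raised 5 and lowered 3 in differentiation medium, where 37.5% of all genes were called higher and 27.7% lower. Slc3a2 was higher in hypoxia in growth medium (1.32 ± 0.11, adjusted p 0.000268) and lower in differentiation medium (-2.02 ± 0.11, adjusted p 1.05e-05). Bsg (basigin) was 400 and 392 FPKM in normoxic growth cultures and rose in hypoxia by 2.59 ± 0.13 in growth medium (adjusted p 5.71e-05) and by 2.66 ± 0.13 in differentiation medium (adjusted p 7e-06). Cd82 was 306 and 244 FPKM in normoxic and 92.4 and 101 in hypoxic growth cultures (-1.49 ± 0.12, adjusted p 0.000225), and 271 and 269 in normoxic and 59.4 and 56.8 in hypoxic differentiation cultures (-2.20 ± 0.12, adjusted p 9.42e-06).

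**Figure D5:**
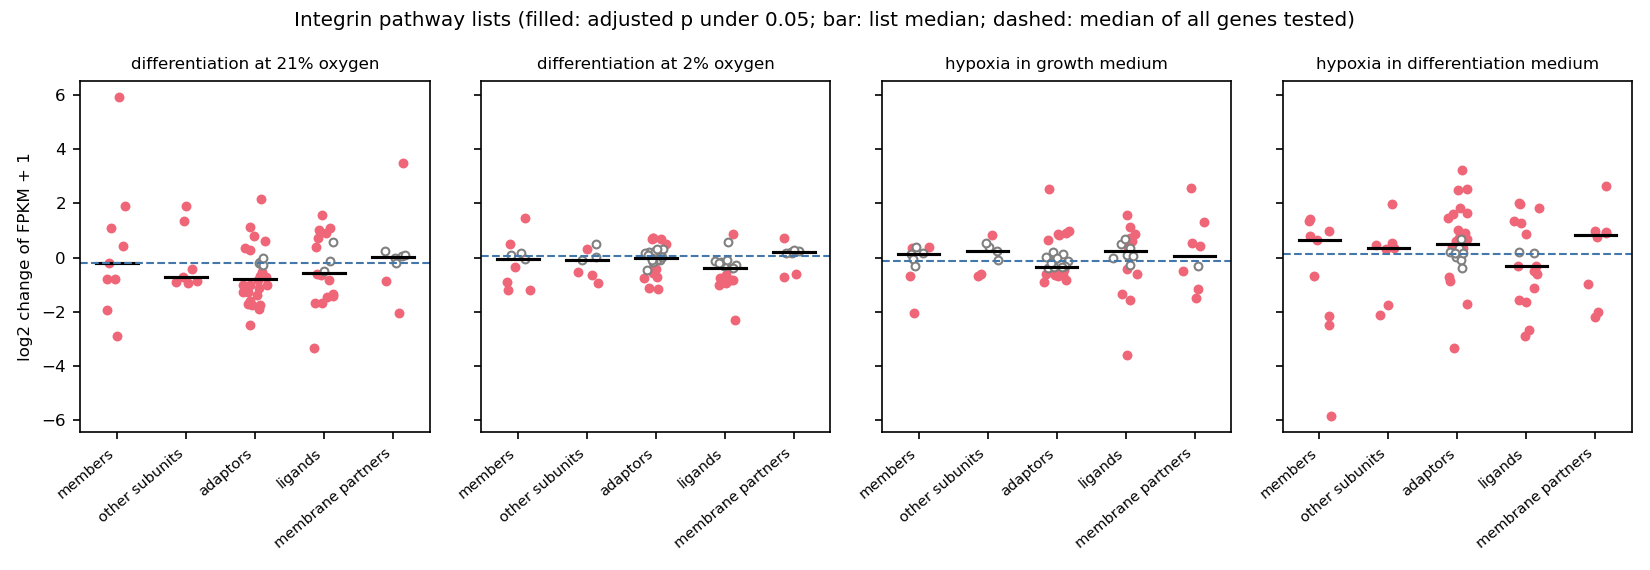
Fitted log2 change of FPKM + 1 (vertical axis) of each tested gene in 5 lists (horizontal axis) for 4 comparisons, with filled points for an adjusted p under 0.05, a bar at the list median and a dashed line at the median of all genes tested. The adaptor median lies at -0.78 with differentiation medium at 21% oxygen and at 0.50 with hypoxia in differentiation medium.

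Genes with the most similar profile were sought for the 7 tested members whose group means spanned at least 1 on the log2 scale, among 9406 other genes with a mean of at least 5 FPKM in 1 group. Likeness was the root mean square difference of the gene-centred log2(FPKM + 1) profiles over the 8 libraries. For Itgb1bp2 the nearest were the muscle actin regulator Abra and the perinatal myosin heavy chain Myh8, each at 0.15. For Itga7 they were the endosomal protein Ehd4 and the co-chaperone Dnajb5, each at 0.23. For Itga3 they were Tcea3 and Aebp1 (each 0.16), and for Itga6 Stx11 (0.19) and Ier2 (0.20). Itgav was followed most closely by Gabpb2 (0.05) and Stxbp5 (0.10), Itgb3 by Plp2 and Parp16 (each 0.12), and Itgb5 by Zfp316 and Mnt (each 0.06). These values describe likeness over 4 groups of 2 libraries and carry no test.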

How the data were processed

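The authors deposited 1 gene table with a column of FPKM values for each of the 8 RNA-seq libraries. STAR 2.5.1b, Cufflinks 2.2.1 and genome build mm9 are named in the submitters' processing notes, and RNA was made into stranded total RNA libraries per the labels' protocols. The annotation, whether strand was used and how libraries were scaled to each other are not given in the sources used here. Because the values are not counts, no count test was run. Columns were matched to samples by title.

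The FPKM values were used on the deposited scale. Genes whose mean reached 1 FPKM in any of the 4 groups (12389 of 24043) were fitted with limma 3.58.1 in R 4.3.3 on log2(FPKM + 1), with 4 group means over all 8 libraries, an intensity trend, and 4 residual and 2.61 prior degrees of freedom. Tests were two-sided, with Benjamini-Hochberg adjustment over all 12389 genes of a comparison. The fit was also run on simulated data with equal spread in all groups and few changed genes. These settings differ from the data, so that run does not measure how reliable the calls here are. One-fragment steps among values up to 0.05 FPKM gave relative depth, since absolute depth is unknown. Replicates are biological per the labels. All 10 members are named. From each other list, the 2 largest rises and 2 largest falls among called genes with at least 5 FPKM in the higher group are named for each of 4 comparisons, and other genes are named for their role. Some genes of these lists are counted but not reported here by name. Members and lists were chosen with earlier results of these data known. Alternatives were another pseudocount, 2 other filters, 2 scalings, only the libraries compared, library weights, robust moderation, a replicate block and leaving out each library. A fit without 1 library leaves its group with no spread of its own. Without either hypoxic differentiation library, the group whose replicates differed most adds nothing to the shared spread. Genes can then pass the threshold more easily, so calls in those fits are no sign of stability.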

Additional observations from a re-analysis of the deposited data

Results flagged for a closer look

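The response to differentiation medium differed between the 2 oxygen levels, by the test of the interaction in limma on all 12389 genes, for 7 of the 9 integrin genes tested. On the log2(FPKM + 1) scale the interaction was -5.98 for Itgb1bp2, -2.32 for Itga6, 1.67 for Itga3, 1.03 for Itgb3, 0.97 for Itgav, 0.73 for Itgb1 and 0.45 for Itgb5. Itga4, fitted without the filter on low values, had -0.16 (adjusted p 0.00893) and rests on at most 1 fragment in each hypoxic library. The same test called 54.1% of all genes. Replicates of hypoxic differentiation medium differed in the summed level of 12 proliferation genes (53.2 and 324 FPKM), and the part of this difference in the interactions was not tested. The direction of the 7 interactions was the same without replicate A and without replicate B of that group. Itgb5 had 0.36 without replicate A, and it was not called after median-of-ratios scaling (0.12, adjusted p 0.6).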

How the results depend on the processing

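With the letters A and B as a replicate block, 7, 5, 2, 9 and 6 integrin genes were called for the medium at 21% oxygen, the medium at 2% oxygen, oxygen in growth medium, oxygen in differentiation medium and the interaction, against 9, 6, 4, 9 and 7 without it. The letters do not pair the libraries: deviations of the A libraries correlated between groups with r of -0.166 to 0.042. With letters crossed in hypoxic growth medium, chosen after these correlations were seen, the counts were 7, 6, 4, 9 and 7. The share of all genes called is not given for these fits or for those leaving out 1 library. A smaller count in them is therefore not read as particular to the integrin genes. Leaving out 1 library at a time gave 1 to 5 calls for hypoxia in growth medium. Leaving out 1 library gave Itga5 changes of -0.13 to 0.29 and Itgb1bp2 changes of -0.27 to 0.15 with differentiation medium in hypoxia. Neither gene was called there in the fit of all 8 libraries. Scaling turned Itgb1 with differentiation medium in normoxia to 0.07 (median-of-ratios) and with hypoxia in growth medium to 0.07 (median-of-ratios) and 0.11 (upper-quartile). It turned Itga5 with differentiation medium in hypoxia to -0.01 (upper-quartile). The cause was not tested. With all 18 alpha chains in the sum, the Itga7 share in hypoxic growth medium was 18.1% in place of 19.4%. The counts for the other 4 comparisons stayed within 1.5 times under all alternatives run. Depth limits Itga4 and Itgb1bp2, which rest on few fragments outside the groups where they are highest.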
